A study of Mus musculus with 6 samples.

Results

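Cxcr5+Bcl6+ CD4+ T cells, the full follicular helper phenotype of this series, were compared with Cxcr5-Bcl6- cells, which carried neither marker. The comparison took the 2 arrays titled for each of these populations, 4 of the 6 arrays of the series, and every probe set with a gene symbol in the platform annotation, 23410 of 35556. All arrays held RNA of CD4+ CD44+ T cells, that is of antigen-experienced helper T cells, sorted by flow cytometry from draining lymph nodes of Bcl6_RFP reporter mice. The mice were labelled male, were 8 to 10 weeks old and had been immunised with KLH (keyhole limpet haemocyanin) in CFA (complete Freund's adjuvant). Bcl6+ and Bcl6- refer to the red fluorescent reporter, and Cxcr5+ and Cxcr5- to the surface receptor. The remaining 2 arrays, of Cxcr5+Bcl6- cells, entered the estimate of spread and served as a further point of reference. The series calls the arrays of a group biological replicates, and the sources used here do not say whether mice were pooled. The p-values therefore measure only the spread between these arrays.

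Follicular helper T cells move into B cell follicles along the ligand of the chemokine receptor Cxcr5 and there provide signals that germinal centre B cells need. The transcriptional repressor Bcl6 is required for them, and the adaptor SAP, encoded by Sh2d1a, for their lasting contact with B cells. Activated T cells outside the follicle commonly grow and divide on newly made nucleotides, folded protein and ribosomes, and the gene groups of these processes are described first.

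The markers followed the labels. Cxcr5 read 11.01 and 10.98 in the Cxcr5+Bcl6+ arrays, 9.98 and 9.91 in the Cxcr5+Bcl6- arrays and 7.61 and 7.34 in the Cxcr5-Bcl6- arrays (log2 level). Bcl6 read 11.45 and 11.55 in the Cxcr5+Bcl6+ arrays, 10.55 and 10.56 in the Cxcr5+Bcl6- arrays and 10.31 and 10.31 in the Cxcr5-Bcl6- arrays. Sostdc1, whose secreted product blocks BMP and Wnt ligands, read 9.99 and 10.13 in the Cxcr5+Bcl6+ arrays, 7.78 and 7.75 in the Cxcr5+Bcl6- arrays and 7.01 and 7.19 in the Cxcr5-Bcl6- arrays. Sh2d1a read 12.23 and 12.24 in the Cxcr5+Bcl6+ arrays, 11.31 and 11.26 in the Cxcr5+Bcl6- arrays and 10.02 and 9.76 in the Cxcr5-Bcl6- arrays. For each of the 4 markers the arrays of the 3 groups did not overlap and followed the same order. Between Cxcr5+Bcl6- and Cxcr5-Bcl6- cells, however, limma called only 3 of the 4, and the gap was smallest for Bcl6. Cxcr5 and the reporter chose the cells, so their levels check the sort and are no finding.

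Of the 23410 probe sets 8255 (35.3%) were called at an adjusted p of 0.05 in limma, 4111 higher (17.6%) and 4144 lower (17.7%) in Cxcr5+Bcl6+ cells. Taking 1 probe set per gene, 6797 of 19938 genes (34.1%) passed, 3262 of them higher (16.4% of genes) and 3535 lower (17.7%). Large changes were mostly falls: 760 genes (3.81%) fell at least 2-fold and 243 (1.22%) rose as much. The median log2 difference of all genes was 0.04.

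Xist, which female cells express, stood between 10.99 and 11.70 in all 6 arrays beside the Y-linked genes Eif2s3y (10.55 to 10.86), Kdm5d (9.13 to 9.51) and Uty (9.17 to 10.07), whereas the labels name males only. Its part in the results was not tested. Arrays of a group correlated at r = 0.997 or more across probe sets, and those of the compared groups at 0.971 to 0.974. Genes that T cells do not use shifted too. Receptor genes of smell and pheromone sensing, with trace-amine receptors 1205 in all, had a median log2 difference of 0.22 (Cxcr5+Bcl6+ minus Cxcr5-Bcl6-, as throughout), and 418 of them were called higher and 1 lower. The 95th percentile of their mean levels, 7.48, was taken as the background level, and 733 of the rises and 163 of the falls lay under it. Every gene singled out by rank or list exceeded it in its higher group. Where the lower group lay under it, as for Hpgds, Ascl2 and Mir363, the difference may be understated.

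Markers of other cells that a sort can carry also differed. Of 12 measured B cell genes 9 rose, among them Fcer2a (2.43), Ms4a1 (1.89) and Cd79b (1.61), and 1 fell, Ighm (-0.49), although Cd79a, Blk and Cr2 stayed under background. Other probe sets of Ighm were not called (-0.17 and -0.27, limma adjusted p = 0.161 and 0.222). Averaged over the list, the log2 level reached 8.19 and 8.25 in the Cxcr5+Bcl6+ arrays, 7.91 and 7.87 in the Cxcr5+Bcl6- arrays and 7.34 and 7.35 in the Cxcr5-Bcl6- arrays. Of 20 myeloid and dendritic cell genes 13 were lower, including Siglech (-2.88), Tyrobp (-2.46) and Cd209a (-2.02), and 1 was higher, Lyz2 (1.096) of macrophages and neutrophils, with Cd14, Csf1r, Itgam, Adgre1, Xcr1 and Clec9a under background. Averaged in the same way, they stood at 7.57 and 7.59 in the Cxcr5+Bcl6+ arrays, 7.80 and 7.75 in the Cxcr5+Bcl6- arrays and 8.54 and 8.57 in the Cxcr5-Bcl6- arrays. Both CD8 genes and 5 of 7 NK cell genes were lower, while Klrb1c (1.21) was higher. Only 3 of the 7 exceeded background, Nkg7 (-2.70), Eomes (-1.43) and Prf1 (-0.76), whereas Klrb1c, Klrk1, Gzma and Ncr1 stayed under it. Stromal genes were called in 2 of 9 cases and the 1 erythroid gene was not. Among 7 T cell genes 4 rose and 2 fell. The part of these markers in the results was not tested, and in sorted bulk cells a smaller share of a cell type and less RNA per cell cannot be told apart.

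The shares of all genes that rose and fell, 16.4% and 17.7%, are the background against which each of 37 gene lists is read, and the list plot sets them side by side. Over the 12387 genes above the background level both shares were higher, with 2529 rises and 3372 falls. Lists that hold mostly such genes can therefore exceed the shares over all genes. Chaperone and nucleotide synthesis genes had the highest shares of falls, 66.7% and 66.7% of measured members, and autophagy and lysosome genes the highest share of rises, 45.8%. In 29 lists the shares of rises and of falls were both under 40%. For 12 lists with like numbers of rises and falls the balance turned or became even under another scaling of the arrays, so that no direction is given for them.

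**Figure D1:**
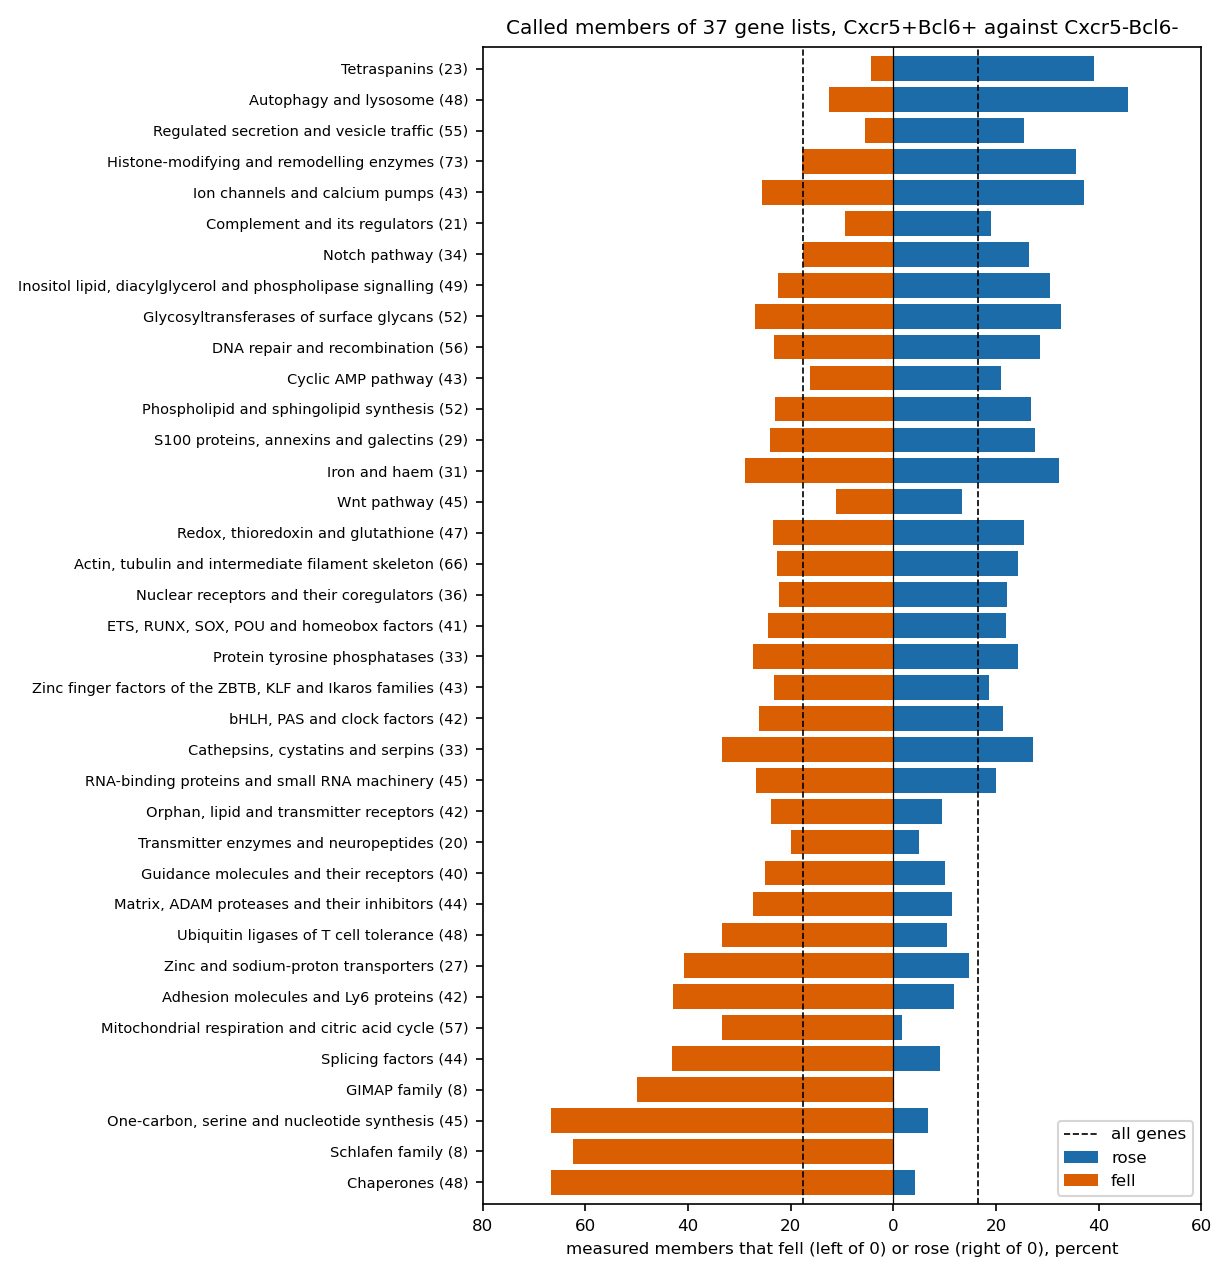
Percent of the measured members of each of 37 gene lists that rose (blue, right of 0) or fell (orange, left of 0) in Cxcr5+Bcl6+ against Cxcr5-Bcl6- cells, limma adjusted p under 0.05, with the number measured in brackets. Dashed lines mark the shares over all genes, 16.4% up and 17.7% down.

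Genes of nucleotide, folate and serine synthesis were lower in Cxcr5+Bcl6+ cells. Of 45 measured members 30 fell and 3 rose, with a median log2 difference of -0.64, and 16 of the falls were at least 2-fold. Shmt1, with the largest fall, encodes the cytosolic serine hydroxymethyltransferase that loads folate with carbon from serine. It read 8.79 and 8.97 in the Cxcr5+Bcl6+ arrays, 10.60 and 10.46 in the Cxcr5+Bcl6- arrays and 11.10 and 10.88 in the Cxcr5-Bcl6- arrays. Shmt1 fell by 2.11 (SE 0.107, limma adjusted p = 6.5e-08), and the 3 groups did not overlap. Mthfd1, which interconverts the loaded folates, read 9.36 and 9.52 in the Cxcr5+Bcl6+ arrays, 10.74 and 10.69 in the Cxcr5+Bcl6- arrays and 11.44 and 11.19 in the Cxcr5-Bcl6- arrays and fell by 1.88 (SE 0.106, limma adjusted p = 1.6e-07). Their mitochondrial counterparts moved the same way by less, Shmt2 by -1.12 and Mthfd2 by -0.57, as did Phgdh (-0.72) and Psat1 (-0.93) of serine synthesis.

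The enzymes that build the purine ring fell along the pathway. Ppat, which commits the pathway, fell by 1.41, followed by Gart (-1.54), Pfas (-1.38), Adsl (-1.09) and Atic (-0.63) and by the enzymes of guanine nucleotide synthesis, Impdh1 (-1.04) and Gmps (-0.68). Paics (-0.29) was also called, but lost its call without Cxcr5+Bcl6+ replicate 2, Cxcr5-Bcl6- replicate 1 or either Cxcr5+Bcl6- replicate (adjusted p = 0.113, 0.097 and 0.0559). On the pyrimidine side Cad, whose product starts the pathway, read 9.18 and 9.46 in the Cxcr5+Bcl6+ arrays, 10.42 and 10.58 in the Cxcr5+Bcl6- arrays and 10.99 and 11.12 in the Cxcr5-Bcl6- arrays. It fell by 1.73 (SE 0.112, limma adjusted p = 4.2e-07), and Umps (-1.50) and Dhodh (-0.65) accompanied it. Ctps, one of a pair of CTP synthase genes, read 8.28 and 8.47 in the Cxcr5+Bcl6+ arrays, 9.79 and 9.77 in the Cxcr5+Bcl6- arrays and 10.40 and 10.28 in the Cxcr5-Bcl6- arrays and fell by 1.96 (SE 0.0973, limma adjusted p = 5.37e-08), whereas its paralog Ctps2 rose by 1.18. Members of this and the next group beyond the 4 largest changes in each direction were chosen after their values were seen.

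The 3 rises of the list lay outside ring synthesis. Dck, the deoxycytidine kinase that salvages deoxynucleosides, read 11.14 and 11.19 in the Cxcr5+Bcl6+ arrays, 10.32 and 10.34 in the Cxcr5+Bcl6- arrays and 9.25 and 9.13 in the Cxcr5-Bcl6- arrays. It rose by 1.98 (SE 0.0886, limma adjusted p = 2.78e-08), the largest rise of the list. Rrm2, the small subunit of ribonucleotide reductase, rose by 0.58. Dctd, which deaminates deoxycytidylate on the way to thymidylate, went the other way and fell by 2.02 (SE 0.0871, limma adjusted p = 2.18e-08), from 10.79 and 10.77 in the Cxcr5-Bcl6- arrays to 8.72 and 8.80 in the Cxcr5+Bcl6+ arrays.

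Chaperones were lower to a like extent, with 32 of 48 members down, 2 up and a median of -0.68. Hspd1, the mitochondrial chaperonin, read 10.99 and 10.996 in the Cxcr5+Bcl6+ arrays, 12.15 and 12.10 in the Cxcr5+Bcl6- arrays and 12.55 and 12.39 in the Cxcr5-Bcl6- arrays. It fell by 1.48 (SE 0.0924, limma adjusted p = 3.32e-07), and its second probe set fell too (-1.69). Hspe1, the partner of Hspd1 that is transcribed in the opposite direction from the same promoter region, fell by 1.05. All 8 genes of the cytosolic chaperonin CCT in the list fell, from Cct2 (-0.42) to Cct6a (-1.18), with Cct8 (-1.13), Cct3 (-0.96), Cct7 (-0.93), Tcp1 (-0.82), Cct4 (-0.74) and Cct5 (-0.71) between them. In the endoplasmic reticulum Hsp90b1 (-1.22) and Hspa5 (-0.89) fell, in the mitochondrion Hspa9 (-1.08) and in the cytosol Hsph1 (-1.34) and Hsp90aa1 (-0.85), so that falls reached each compartment. Chaperone rises numbered 1 without Cxcr5-Bcl6- replicate 2. The small heat shock gene Hspb6 rose by 0.61.

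The 250 bases before the start of Hspd1 (RefSeq, GRCm38.p6, chr1:55088244-55088493, minus strand) are shown because the E box letters CACGTG, a sequence bound by Myc and related factors, were more frequent before genes that fell. They occur once here, in capitals.
Hspd1: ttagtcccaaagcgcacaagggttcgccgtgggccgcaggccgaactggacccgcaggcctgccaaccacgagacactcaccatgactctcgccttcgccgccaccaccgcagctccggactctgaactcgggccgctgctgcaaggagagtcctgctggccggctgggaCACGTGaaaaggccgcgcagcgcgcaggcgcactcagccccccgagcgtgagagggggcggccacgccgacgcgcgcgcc
The capitals begin 80 bases before the start. Over windows from 250 bases before to 50 after the start, CACGTG was found in 8.40% of 15563 promoters, in 12.7% of 2802 before genes that fell and in 8.26% of 2602 before genes that rose. Among promoters of the chaperone list it was found in 14.6% and of the nucleotide list in 9.76%. A match describes letters in the window and shows no binding.

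Respiratory chain and citric acid cycle genes fell by less. Of 57 members 19 fell and 1 rose, with a median of -0.19 and without a fall of 2-fold. The falls numbered 13 after quantile normalisation, 16 after loess normalisation and 23 after centring each array on its median. Idh3a (-0.96) and Suclg2 (-0.64) belong to the citric acid cycle, Cycs (-0.84) is cytochrome c and Uqcrfs1 (-0.68) the iron-sulfur subunit of complex III. The fall count depended on 1 array, since it was 11 without Cxcr5+Bcl6+ replicate 1. The only rise, of Idh2 (0.25), was lost without any 1 of the 6 arrays (adjusted p = 0.0645 to 0.116).

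Splicing factors fell in 19 of 44 cases and rose in 4, with a median of -0.22. U2af1, which recognises the end of introns, read 10.23 and 10.46 in the Cxcr5+Bcl6+ arrays against 11.27 and 10.95 in the Cxcr5-Bcl6- arrays and fell by 0.76 (SE 0.118, limma adjusted p = 0.00034). Others were the RNA packaging genes Hnrnpab (-0.72) and Hnrnpa0 (-0.63) and the serine- and arginine-rich factor Srsf9 (-0.60). Kinases that phosphorylate such factors were among the rises, Srpk2 (0.85) and Clk1 (0.38). Splicing factor rises numbered 2 without Cxcr5+Bcl6+ replicate 2, Cxcr5+Bcl6- replicate 1, Cxcr5+Bcl6- replicate 2 or Cxcr5-Bcl6- replicate 1. RNA-binding proteins outside the spliceosome gave 9 rises and 12 falls among 45 genes, Celf2 (0.91), Cpeb2 (0.89) and Ago4 (0.80) upward and Zc3h12c, a relative of the RNase Regnase-1, downward at -2.55. RNA-binding protein rises numbered 5 without Cxcr5+Bcl6+ replicate 2.

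**Figure D2:**
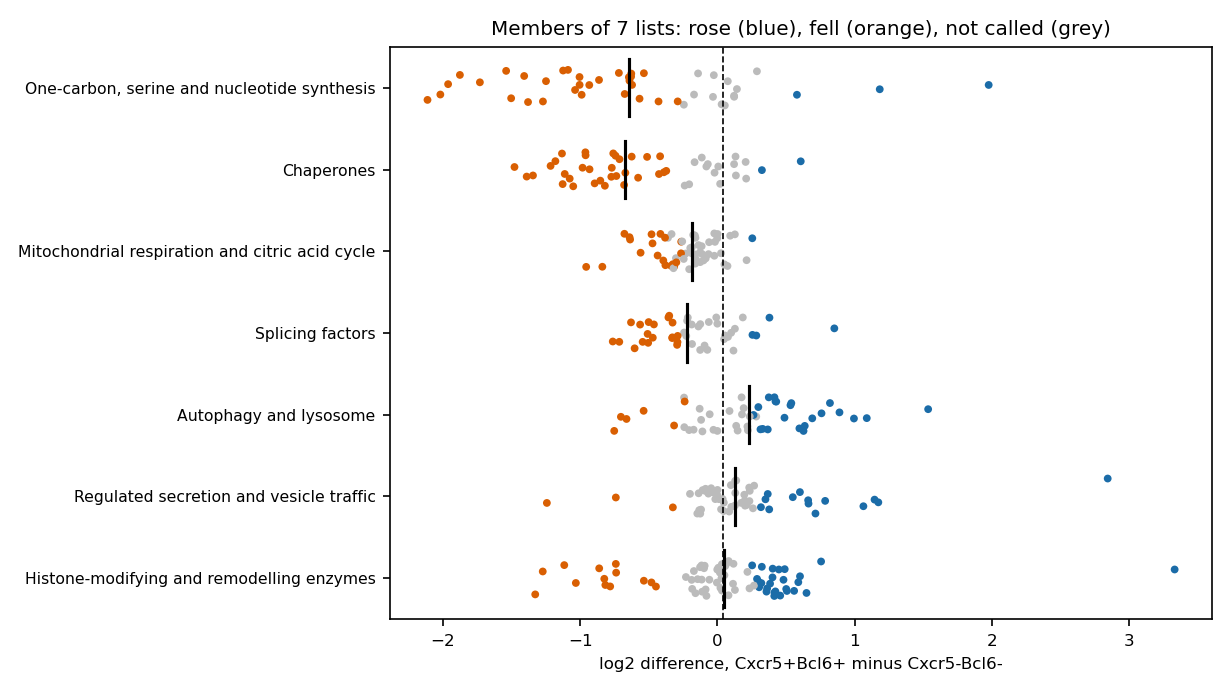
Log2 difference (Cxcr5+Bcl6+ minus Cxcr5-Bcl6-) of each measured member of 7 lists. Points are genes, coloured by the limma call, short black lines are list medians and the dashed line is the median of all genes, 0.04. The nucleotide and chaperone medians lie at -0.64 and -0.68, and the autophagy median at 0.23.

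Autophagy and lysosome genes were higher, with 22 of 48 members up, 6 down and a median of 0.23. Lipa, the lysosomal acid lipase that releases cholesterol from its esters, read 11.63 and 11.66 in the Cxcr5+Bcl6+ arrays, 11.21 and 11.19 in the Cxcr5+Bcl6- arrays and 10.18 and 10.04 in the Cxcr5-Bcl6- arrays. It rose by 1.54 (SE 0.0899, limma adjusted p = 2.07e-07), without overlap among the 3 groups. Ulk1, the kinase that starts autophagy, read 10.89 and 11.09 in the Cxcr5+Bcl6+ arrays, 10.35 and 10.34 in the Cxcr5+Bcl6- arrays and 9.89 and 9.92 in the Cxcr5-Bcl6- arrays and rose by 1.09 (SE 0.0947, limma adjusted p = 3.98e-06), and its relative Ulk2 rose by 0.89. The membrane protein gene Atg9a (0.995), the scaffold of the Ulk complex Rb1cc1 (0.69), the cargo receptors Nbr1 (0.76) and Sqstm1 (0.37) and the membrane mark Map1lc3b (0.49) rose as well. The falls held Atg3 (-0.70), Atg16l1 (-0.66) and Atg5 (-0.54), all 3 of the machinery that attaches that mark to membranes, and the lysosomal hydrolase Gusb (-0.75). Tfeb, the transcription factor known for switching on lysosome genes, rose by 0.57.

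Promoters of this list held the E box letters, which form the core of the element Tfeb binds, in 11 of 38 cases (28.9% against 8.40% of all promoters). Of these 11 genes 3 rose, 2 fell and 6 were not called, so the letters did not sort the list by direction. Mcoln1, a calcium channel of the lysosome membrane, rose by 0.60, more than the other 2 risers with the letters. It carried them 2 times in the 250 bases before its start (RefSeq, GRCm38.p6, chr8:3500269-3500518, plus strand), in capitals below, 71 and 45 bases before the start.
Mcoln1: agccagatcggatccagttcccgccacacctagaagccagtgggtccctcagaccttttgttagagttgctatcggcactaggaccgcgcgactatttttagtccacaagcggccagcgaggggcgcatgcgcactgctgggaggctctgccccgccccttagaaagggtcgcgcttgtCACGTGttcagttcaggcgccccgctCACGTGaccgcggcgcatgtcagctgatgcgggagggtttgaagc

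Cathepsins, cystatins and serpins split, with 9 up and 11 down of 33 and a median of -0.02. Proteases and their inhibitors were found in both directions. The proteases Ctsd (0.78), Lgmn (0.76), Ctse (0.72) and Ctsb (0.70) rose, as did the inhibitors Serpinb6a (0.68) and Cstb (0.54). The largest falls exceeded the largest rises and held the proteases Ctsh (-2.11) and Ctsw (-2.04) and the inhibitors Serpinb9 (-2.19) and Serpinb6b (-1.48), with the proteases Ctsc (-0.79) and Ctsz (-0.69) falling by less. Serpinb9, which protects cytotoxic cells from their own granzyme B, read 7.67 and 8.16 in the Cxcr5+Bcl6+ arrays against 10.26 and 9.95 in the Cxcr5-Bcl6- arrays.

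Of 66 genes of the actin, tubulin and intermediate filament skeleton 16 rose and 15 fell. Tubulin genes were among the rises, Tubb2b (2.05) and Tubb2a (1.80), whose near-identical sequences the probe sets may share, with the microtubule regulator Stmn1 (0.997). Actin regulators led the falls, Coro2a (-2.13), Fscn1 (-2.04) and Capg (-1.58). Fscn1 is also a dendritic cell marker and belongs to the myeloid list above. Regulated secretion and vesicle traffic genes rose in 14 and fell in 3 of 55 cases (median 0.13). Syt11, of the synaptotagmin family that controls vesicle release, read 10.71 and 10.82 in the Cxcr5+Bcl6+ arrays against 9.60 and 9.59 in the Cxcr5-Bcl6- arrays. It rose by 1.17, beside Ica1l (2.84), the largest rise, and the vesicle genes Rab37 (1.15) and Vamp1 (1.06), while the proprotein convertase Furin fell by 1.24.

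Histone-modifying and remodelling enzymes rose in 26 and fell in 13 of 73 cases, with a median of 0.05, close to that of all genes. Apart from Padi4 (3.33), which converts arginine to citrulline, the rises were at most 0.76, the value of the methyltransferase gene Nsd2, with Ehmt2 (0.65), Setd1b (0.60), Kmt2e (0.59) and Kmt2a (0.51) and the acetyltransferase gene Ep300 (0.45) below it. Histone enzyme rises numbered 12 without Cxcr5+Bcl6+ replicate 2. The falls were larger. Kdm6b, a histone demethylase, read 10.99 and 11.18 in the Cxcr5+Bcl6+ arrays against 12.33 and 12.49 in the Cxcr5-Bcl6- arrays and fell by 1.33 (SE 0.102, limma adjusted p = 1.64e-06), followed by the methyltransferases Dot1l (-1.27), Suv39h2 (-1.12) and Prmt1 (-1.03). DNA repair genes gave 16 rises and 13 falls of 56. Both subunits of Ku, which binds broken DNA ends, fell, Xrcc6 (-0.76) and Xrcc5 (-0.73), as did Ung (-0.999) and Apex1 (-0.83) of base excision repair, whereas Apobec3 (1.02), Brca1 (0.74) and Chek2 (0.72) rose. Repair rises numbered 8 without Cxcr5+Bcl6+ replicate 2. Repair falls numbered 8 without Cxcr5-Bcl6- replicate 1.

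Among 42 orphan, lipid and transmitter receptors 4 rose and 10 fell. Gpr18 read 9.77 and 9.79 in the Cxcr5+Bcl6+ arrays against 12.23 and 12.29 in the Cxcr5-Bcl6- arrays and fell by 2.48 (SE 0.086, limma adjusted p = 4.35e-09), and the leukotriene receptor Cysltr2 (-2.29), the proton sensor Gpr65 (-2.28) and the prostaglandin E receptor Ptger4 (-1.46) fell with it. Lpar6, a receptor for lysophosphatidic acid, read 11.36 and 11.43 in the Cxcr5+Bcl6+ arrays against 10.24 and 10.04 in the Cxcr5-Bcl6- arrays and rose by 1.26 (SE 0.0976, limma adjusted p = 1.72e-06), and Gpr155 (1.60) rose further. Ion channels and calcium pumps gave 16 rises and 11 falls of 43. Both shares, 37.2% and 25.6%, were above those over all genes. Only the share of rises was above that over genes above background, which 37 of the 43 were. The families of store-operated calcium entry split, with the store sensor Stim1 (0.92) and the pore gene Orai2 (1.13) up and their relatives Stim2 (-0.27) and Orai1 (-0.89) down. Stim2 lost its call after quantile or loess normalisation (adjusted p = 0.156 and 0.0768) and without any 1 array other than Cxcr5-Bcl6- replicate 2 (0.0675 to 0.111). The mitochondrial calcium channel Mcu (-0.96) fell.

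Of 27 zinc and sodium-proton transporters 4 rose and 11 fell. Slc9a9 and Slc9a7, which exchange sodium or potassium for protons in endosomes and the Golgi, rose by 2.41 and 1.15, and their relative Slc9a5 (-0.28) fell, though not past the threshold without any 1 array other than Cxcr5-Bcl6- replicate 1 (adjusted p = 0.0628 to 0.147). Of the zinc carriers Slc39a4 (1.03) rose and Slc30a4 (-1.59), Slc39a14 (-1.13) and Slc39a10 (-1.13) led the falls. Transporter falls numbered 7 without Cxcr5+Bcl6+ replicate 1. Glycosyltransferases of surface glycans rose in 17 and fell in 14 of 52 cases. St6galnac1, a sialyltransferase of mucin-type glycans, read 9.38 and 9.58 in the Cxcr5+Bcl6+ arrays against 7.41 and 7.83 in the Cxcr5-Bcl6- arrays and rose by 1.86 (SE 0.133, limma adjusted p = 9.34e-07), while its relative St6galnac4 read 9.09 and 9.33 in the Cxcr5+Bcl6+ arrays against 11.37 and 11.34 in the Cxcr5-Bcl6- arrays and fell by 2.14 (SE 0.0985, limma adjusted p = 3.39e-08). Fut8, which adds the core fucose of N-glycans, rose by 1.14, and Mgat4a, which branches them, fell by 1.66.

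Adhesion molecules and Ly6 proteins fell in 18 and rose in 5 of 42 cases (median -0.22). The Ly6 gene Ly6d (-2.69) fell most. The adhesion receptors of activated and cytotoxic lymphocytes Crtam (-2.34), Cd226 (-2.22) and Jaml (-2.03) fell, and Emb rose by 1.40. Pecam1 rose by 1.08 and is also on the endothelial marker list. Adhesion rises numbered 2 without Cxcr5+Bcl6+ replicate 2 or Cxcr5-Bcl6- replicate 1 and 3 without Cxcr5+Bcl6- replicate 1 or Cxcr5+Bcl6- replicate 2. Tetraspanins, which arrange partner proteins in membranes, showed the reverse, with 9 rises led by Cd9 (1.15), Tspan32 (1.14), Tspan14 (0.78) and Cd151 (0.64) and 1 fall, Tspan6 (-1.09), among 23. Tetraspanin falls numbered 2 without Cxcr5+Bcl6+ replicate 2. Matrix genes, ADAM proteases and their inhibitors gave 5 rises and 12 falls of 44. Timp2, an inhibitor of matrix metalloproteases, read 10.29 and 10.42 in the Cxcr5+Bcl6+ arrays against 8.91 and 8.92 in the Cxcr5-Bcl6- arrays and rose by 1.44 (SE 0.0899, limma adjusted p = 3.33e-07), and Ecm1, a secreted matrix protein, fell by 2.63.

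S100 proteins, annexins and galectins divided 8 up and 7 down of 29, with S100a11 (1.14) and S100a10 (0.75) among the rises and Lgals3bp (-1.79), Anxa3 (-1.20) and Lgals9 (-1.07) among the falls. S100 and annexin rises numbered 4 without Cxcr5+Bcl6+ replicate 1 and 5 without Cxcr5-Bcl6- replicate 1. Anxa6 (-1.24) fell by the probe set used, while its other probe set did not differ past the threshold (-0.02, adjusted p = 0.915). Of 40 guidance molecules and receptors 4 rose and 10 fell, including Sema7a (-2.20), Nrp2 (-1.29) and Sema4a (-1.14) downward and Plxnc1 (0.62) and Ephb6 (0.46) upward. Guidance rises numbered 7 without Cxcr5-Bcl6- replicate 2. Complement genes were called in 6 of 21 cases, 4 up and 2 down, and the only calls above background were the falls of C1qbp (-1.48) and Cfp (-0.36). Complement rises numbered 2 without Cxcr5+Bcl6+ replicate 2. Among 20 transmitter enzymes and neuropeptides 1 rose and 4 fell, a share of falls close to the 17.7% over all genes. The enkephalin precursor gene Penk (-2.31) and the neuritin gene Nrn1 (-1.82) were lowest. The falls of this list numbered 2 without Cxcr5+Bcl6+ replicate 1 or Cxcr5-Bcl6- replicate 2. Its rise was lost after quantile normalisation, loess normalisation or centring each array on its median.

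Genes of the Notch pathway, in which contact between cells releases part of the receptor to act in the nucleus, changed in both directions. Of 34 members 9 rose and 6 fell. The receptor genes Notch2 (-1.34) and Notch1 (-0.89), the ligand gene Dll4 (-1.60) and Rbpj (-1.38), the nuclear partner of cleaved Notch, fell. Another receptor gene, Notch4 (0.36), rose, but not past the threshold without Cxcr5+Bcl6+ replicate 1 or Cxcr5-Bcl6- replicate 1 (adjusted p = 0.086 and 0.0686). Rbpj read 10.52 and 10.74 in the Cxcr5+Bcl6+ arrays against 12.09 and 11.92 in the Cxcr5-Bcl6- arrays, and a second probe set for it, under background, was not called (-0.05, adjusted p = 0.734). The rises were smaller, with Dtx3 (0.94), Cir1 (0.84) and Psen2 (0.60) the largest. Notch rises numbered 4 without Cxcr5+Bcl6+ replicate 1 and 5 without Cxcr5-Bcl6- replicate 1. Among 45 Wnt pathway genes 6 rose and 5 fell, shares below those over all genes. Axin2 (0.92), a feedback inhibitor that Wnt signals induce, rose, and Znrf3 (-1.40), which removes Wnt receptors, and Wls (-1.20), which carries Wnt proteins out of cells, fell. Wnt falls numbered 3 without Cxcr5+Bcl6+ replicate 1.

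Cyclic AMP genes gave 9 rises and 7 falls of 43. Phosphodiesterases, which break cyclic AMP down, held the largest rises. Pde3b read 12.42 and 12.54 in the Cxcr5+Bcl6+ arrays against 10.69 and 10.52 in the Cxcr5-Bcl6- arrays and rose by 1.88 (SE 0.0995, limma adjusted p = 9.22e-08). Pde2a read 11.03 and 11.09 in the Cxcr5+Bcl6+ arrays against 9.22 and 9.23 in the Cxcr5-Bcl6- arrays and rose by 1.84 (SE 0.086, limma adjusted p = 3.75e-08), and Pde7a (1.07) rose with the cyclase gene Adcy7 (0.99). In contrast Pde8a (-0.85), the anchor gene Akap1 (-1.10) and the repressor gene Crem (-0.99) fell. Inositol lipid, diacylglycerol and phospholipase genes rose in 15 and fell in 11 of 49 cases. The phospholipase C genes Plcb4 (1.43) and Plcg1 (0.88), the phospholipase C-like gene Plcl1 (1.06) and the kinase gene Prkd2 (0.86) rose. A relative of Prkd2, Prkd3 (-1.26), fell. Inositol lipid falls numbered 6 without Cxcr5+Bcl6+ replicate 1. Pld4 (-2.98) fell most, and is a gene of plasmacytoid dendritic cells and other myeloid cells as well.

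Tyrosine phosphatases and relatives moved both ways, 8 up and 9 down of 33. The pair Ubash3a and Ubash3b, which restrain T cell receptor signals, split, with 0.47 for the first and -1.10 for the second. Ptpn13 rose by 1.64 and Ptpn2 (-0.68) and Ptpn6 (-0.65), which damp cytokine and antigen receptor signals, fell. Phosphatase falls numbered 5 without Cxcr5+Bcl6+ replicate 1. Of 48 genes listed as ubiquitin ligases of T cell tolerance 16 fell and 5 rose. The list also holds deubiquitinases such as Usp10, adaptors such as Ndfip1 and pseudokinases such as Trib1. The rises numbered 10 after quantile normalisation and 8 after loess normalisation. Rnf125 read 12.61 and 12.64 in the Cxcr5+Bcl6+ arrays, 11.89 and 11.76 in the Cxcr5+Bcl6- arrays and 10.77 and 10.60 in the Cxcr5-Bcl6- arrays and rose by 1.94 (SE 0.0955, limma adjusted p = 5.2e-08). Rnf128, known as GRAIL and tied to T cell anergy, rose by 0.59, and Rnf19b (-1.11), Trib1 (-1.08) and Traf6 (-1.07) fell.

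Transcription factor families showed no common direction. ZBTB, KLF and Ikaros factors gave 8 rises and 10 falls of 43, with Klf3 (1.18) and the CD4 lineage factor Zbtb7b (0.73) up and Gfi1 (-1.77), Ikzf4 (-1.55) and Zbtb10 (-1.48) down. Zinc finger rises numbered 5 without Cxcr5+Bcl6+ replicate 2. ETS, RUNX, SOX, POU and homeobox factors gave 9 and 10 of 41, with Pou6f1 (1.18) and Ets1 (0.56) up and Ets2 (-1.55), Hopx (-1.10) and Runx3 (-0.95) down. Elf4 (0.84) rose by 1 of 2 probe sets, and the dimmer one was not called (-0.24, adjusted p = 0.108). Of 42 bHLH, PAS and clock factors 9 rose and 11 fell. Ascl2, a factor known to induce Cxcr5 in T cells, read 8.57 and 8.74 in the Cxcr5+Bcl6+ arrays, 7.33 and 7.19 in the Cxcr5+Bcl6- arrays and 6.84 and 6.74 in the Cxcr5-Bcl6- arrays and rose by 1.86 (SE 0.0999, limma adjusted p = 1e-07). The Myc antagonists split, Mxd4 (1.47) up and Mxd1 (-1.41) down, and Ciart (-1.64) and Bhlhe40 (-1.08) of the clock and the aryl hydrocarbon receptor gene Ahr (-1.10) fell. Nuclear receptors gave 8 rises, among them the vitamin D receptor gene Vdr (1.29), and 8 falls, among them the retinoic acid genes Crabp2 (-1.60) and Rara (-1.37), of 36. Nuclear receptor rises numbered 5 without Cxcr5+Bcl6+ replicate 2.

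In lipid synthesis 14 of 52 genes rose and 12 fell. Lpin1 (1.33), which makes diacylglycerol, and Ugcg (0.91), which makes glucosylceramide, rose, and the acyltransferases Agpat4 (-1.26) and Agpat5 (-1.07) fell. Redox genes gave 12 rises and 11 falls of 47. Gpx4, which protects membrane lipids from oxidation, read 10.78 and 10.78 in the Cxcr5+Bcl6+ arrays against 9.81 and 9.70 in the Cxcr5-Bcl6- arrays and rose by 1.02 (SE 0.0911, limma adjusted p = 4.83e-06), and Hmox1 (1.66) and Selenop (1.52) rose more. Redox rises numbered 4 without Cxcr5+Bcl6+ replicate 2. Hmox1 and Selenop are abundant in macrophages too. Cybb (-1.33), the phagocyte oxidase subunit, fell. Iron and haem genes gave 10 and 9 of 31. The transferrin receptor gene Tfrc, which brings iron into growing cells, read 9.06 and 9.36 in the Cxcr5+Bcl6+ arrays, 10.76 and 10.64 in the Cxcr5+Bcl6- arrays and 11.05 and 10.89 in the Cxcr5-Bcl6- arrays and fell by 1.76 (SE 0.115, limma adjusted p = 4.39e-07), while Urod (0.56) and Fech (0.55) of haem synthesis rose. Of 8 GIMAP genes, GTPases of lymphocyte survival, 4 fell, Gimap7 (-1.32), Gimap5 (-1.09), Gimap4 (-0.66) and Gimap9 (-0.53), and the others were not called. Of 8 Schlafen genes 5 fell, Slfn8 (-1.92) most, and the others were not called. These 2 families hold close copies that probe sets may not separate.

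Ranked by size over all genes, ranks 11 to 30 hold genes of several of these groups and some outside them. Hpgds, the haematopoietic prostaglandin D synthase, read 9.13 and 9.38 in the Cxcr5+Bcl6+ arrays, 7.95 and 7.73 in the Cxcr5+Bcl6- arrays and 7.01 and 6.97 in the Cxcr5-Bcl6- arrays and rose by 2.27 (SE 0.11, limma adjusted p = 4.81e-08). Smpdl3a, a phosphodiesterase related to acid sphingomyelinase, read 11.95 and 11.98 in the Cxcr5+Bcl6+ arrays, 10.96 and 10.90 in the Cxcr5+Bcl6- arrays and 9.92 and 9.86 in the Cxcr5-Bcl6- arrays and rose by 2.08 (SE 0.0869, limma adjusted p = 1.74e-08). Cxcr4, the chemokine receptor that also guides germinal centre B cells, read 12.79 and 12.91 in the Cxcr5+Bcl6+ arrays, 11.17 and 11.22 in the Cxcr5+Bcl6- arrays and 10.60 and 10.55 in the Cxcr5-Bcl6- arrays and rose by 2.27 (SE 0.0898, limma adjusted p = 1.18e-08). The 3 groups of arrays were ordered alike in these 3 genes. Further rises were Nav2 (2.35), Abhd4 (2.16) and Ly96 (2.08), the transporters Slc26a11 (2.03) and Slc43a2 (1.93), the transcription factor Nfia (2.01), the glycolytic enzyme Aldoc (1.99), B4galnt4 (1.93) and Klhl4 (1.90) and the retinal reductase Dhrs3 (1.90).

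Gpr83, an orphan receptor known from regulatory T cells, led the falls of ranks 11 to 30. It read 8.43 and 8.55 in the Cxcr5+Bcl6+ arrays, 10.37 and 10.41 in the Cxcr5+Bcl6- arrays and 11.92 and 12.04 in the Cxcr5-Bcl6- arrays, and fell by 3.49 (SE 0.0921, limma adjusted p = 6.64e-10). Cish, a feedback inhibitor of cytokine signals, read 9.19 and 9.09 in the Cxcr5+Bcl6+ arrays, 11.70 and 11.95 in the Cxcr5+Bcl6- arrays and 12.28 and 12.39 in the Cxcr5-Bcl6- arrays and fell by 3.20 (SE 0.105, limma adjusted p = 3.06e-09). The stress-induced factor gene Atf3 (-3.36), the protein S gene Pros1 (-3.32), Akr1c18 (-3.11) and the interferon-induced genes Rtp4 (-3.26), Gbp2b (-3.15), Ifi214 (-3.07), Gbp7 (-3.01) and Ifitm3 (-2.93) were others. Gbp2b and Ifi214 belong to families of close copies. Cd209d (-3.31) and Apol7c (-2.93) fell beside the myeloid and dendritic cell markers given above, and their part was not tested. The mean of the Cxcr5+Bcl6- arrays lay between the other groups for all 20 rises of these ranks and for 16 of the 20 falls. It did so for 9898 of all 19938 genes, and genes ranked by a large gap leave more room for it.

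**Figure D3:**
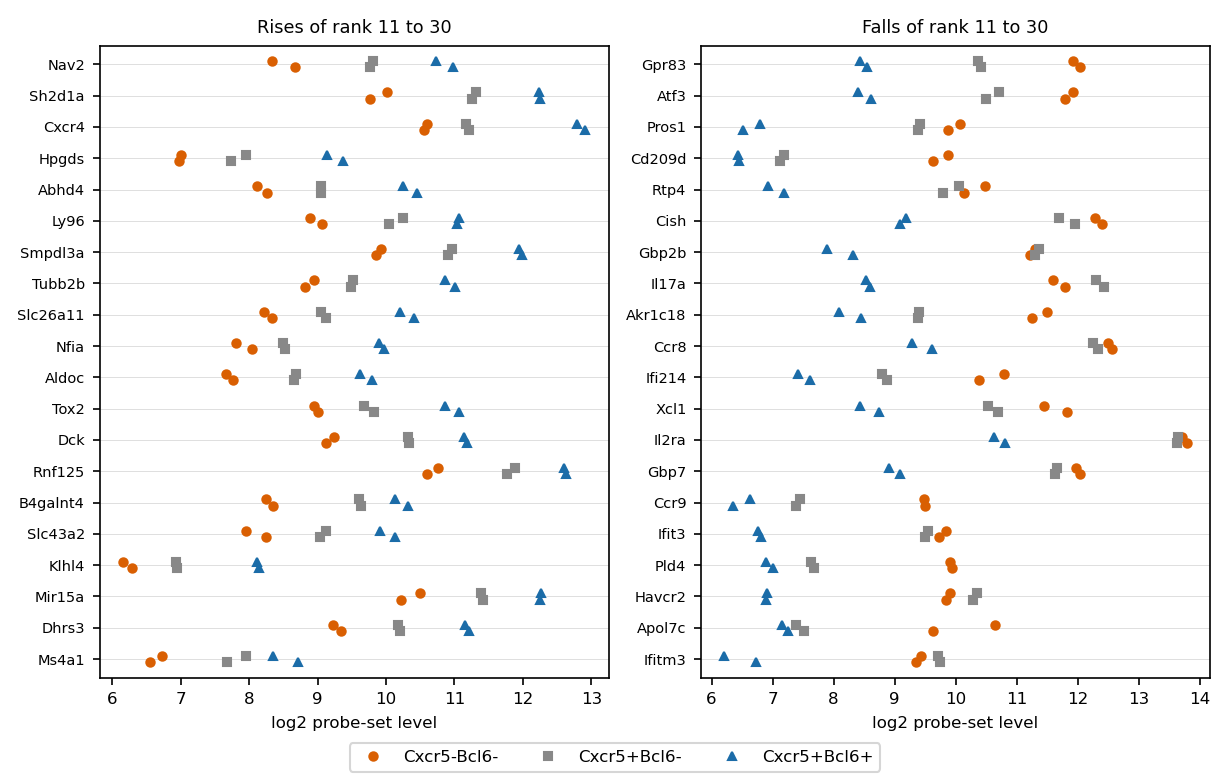
Log2 probe-set level in each of the 6 arrays for the genes ranked 11 to 30 by size of rise (left) or fall (right) in Cxcr5+Bcl6+ (blue triangles) against Cxcr5-Bcl6- cells (orange circles), with Cxcr5+Bcl6- arrays as grey squares. That triangles and circles do not overlap was a condition of the ranking. The squares lie between them by their mean for 20 of 20 rises and 16 of 20 falls, and large gaps leave more room for this.

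The arrays also hold probe sets named for microRNA genes, small RNAs that repress messengers matching their seed (bases 2 to 8). Mature sequences of the Mir17hg cluster, of the miR-15 and miR-16 family and of 3 other genes with changes above 0.7 on the log2 scale are shown, the first 2 groups because they share seeds, with the seed in capitals (RefSeq, GRCm38.p6, 5′ to 3′). The genes of the following fell, the cluster hosted by Mir17hg and 2 others.
miR-17-5p: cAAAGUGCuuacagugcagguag
miR-20a-5p: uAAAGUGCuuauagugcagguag
miR-18a-5p: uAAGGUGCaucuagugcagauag
miR-19a-3p: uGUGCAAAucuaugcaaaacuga
miR-19b-3p: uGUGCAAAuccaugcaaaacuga
miR-363-3p: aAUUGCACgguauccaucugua
miR-155-5p: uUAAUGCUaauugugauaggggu
A gene of each of the following rose.
miR-15a-5p: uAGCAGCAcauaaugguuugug
miR-16-5p: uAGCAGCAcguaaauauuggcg
miR-15b-5p: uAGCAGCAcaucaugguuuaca
miR-181b-5p: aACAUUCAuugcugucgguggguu
The first pair shares the seed AAAGUGC, miR-19a and miR-19b share GUGCAAA, and the 3 members of the miR-15 and miR-16 family share AGCAGCA. The hairpins of the first 5 lie in 1 cluster, from miR-17-5p at chr14:115043684-115043706 to miR-19b-3p at chr14:115044358-115044380, and miR-15a and miR-16-5p lie close together at chr14:61632075-61632096 and chr14:61631936-61631957.

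The cluster genes fell together. Mir17 read 6.57 and 6.71 in the Cxcr5+Bcl6+ arrays, 7.82 and 7.72 in the Cxcr5+Bcl6- arrays and 8.74 and 8.68 in the Cxcr5-Bcl6- arrays and fell by 2.08 (SE 0.0929, limma adjusted p = 2.75e-08). Mir19a read 6.50 and 6.35 in the Cxcr5+Bcl6+ arrays, 7.80 and 7.71 in the Cxcr5+Bcl6- arrays and 8.97 and 8.56 in the Cxcr5-Bcl6- arrays and fell by 2.34 (SE 0.127, limma adjusted p = 1.12e-07). In both the 3 groups stood apart, and Mir18 (-2.10), Mir19b-1 (-2.08) and Mir20a (-1.83) and the host transcript gene Mir17hg (-1.69) followed. Mir363, of a related cluster on chromosome X, read 5.01 and 5.08 in the Cxcr5+Bcl6+ arrays, 6.66 and 6.57 in the Cxcr5+Bcl6- arrays and 7.70 and 7.42 in the Cxcr5-Bcl6- arrays and fell by 2.52 (SE 0.105, limma adjusted p = 1.74e-08), with the Cxcr5+Bcl6+ arrays under background. Mir155, a microRNA gene induced in activated lymphocytes, read 9.29 and 9.70 in the Cxcr5+Bcl6+ arrays against 10.86 and 10.81 in the Cxcr5-Bcl6- arrays and fell by 1.34 (SE 0.122, limma adjusted p = 5.65e-06). Mir155, Mir20a, Mir19b-1, Mir15b and Mir181b-1 were chosen after their values were seen.

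In the opposite direction Mir15a read 12.26 and 12.26 in the Cxcr5+Bcl6+ arrays, 11.39 and 11.41 in the Cxcr5+Bcl6- arrays and 10.50 and 10.22 in the Cxcr5-Bcl6- arrays and rose by 1.90 (SE 0.103, limma adjusted p = 1.1e-07). Its neighbour Mir16-1 read 8.82 and 9.01 in the Cxcr5+Bcl6+ arrays against 7.67 and 7.19 in the Cxcr5-Bcl6- arrays and rose by 1.49 (SE 0.137, limma adjusted p = 6.47e-06). As the rule for named genes required, both were higher in each Cxcr5+Bcl6+ array than in each Cxcr5-Bcl6- array. Mir15b, of the same family on chromosome 3, rose by 0.73, but not past the threshold without Cxcr5+Bcl6+ replicate 2 (adjusted p = 0.0698), and Mir181b-1 (0.88) rose. The second genes for the mature forms of Mir16-1 and Mir181b-1 were not called, with 0.32 (adjusted p = 0.107) for Mir16-2 and -0.12 (adjusted p = 0.415) for Mir181b-2. Mir680-2 (1.16) and Mir680-1 (0.99) share 1 mature sequence and cannot be told apart. Of 297 microRNA genes in all, 38 rose and 30 fell, under the shares of all genes, and 111 exceeded background. A probe set under such a name can read the hairpin, its precursor or the host transcript, which these values do not separate. MicroRNA rises numbered 15 without Cxcr5-Bcl6- replicate 1 and 18 without Cxcr5+Bcl6+ replicate 1. The microRNA balance became 27 up and 32 down after quantile normalisation, 28 up and 36 down after centring each array on its median and 26 up and 37 down after loess normalisation.

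**Figure D4:**
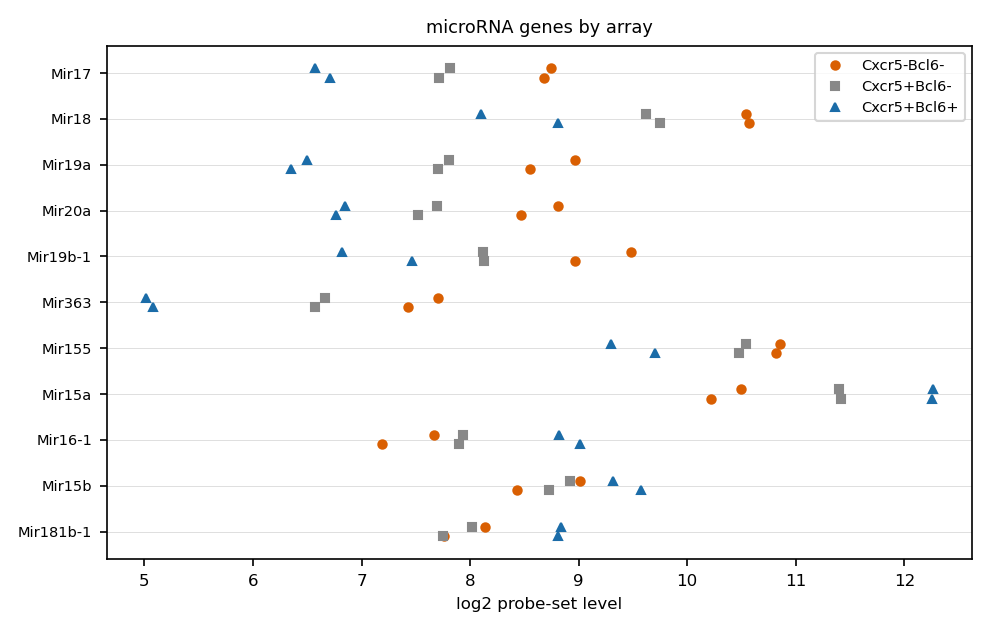
Log2 probe-set level of 11 microRNA genes in each array: Cxcr5+Bcl6+ (blue triangles), Cxcr5+Bcl6- (grey squares) and Cxcr5-Bcl6- (orange circles). The upper 7 genes are lower and the lower 4 higher in both Cxcr5+Bcl6+ arrays than in both Cxcr5-Bcl6- arrays. Genes named by rule had to meet this, and the others were chosen after their values were seen.

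Small nucleolar RNAs, which guide the chemical modification of ribosomal RNA, were lower in Cxcr5+Bcl6+ cells. Of 53 such genes 43 fell and the others were not called, with a median log2 difference of -0.95, and 26 of the falls were at least 2-fold. Snord14e read 10.09 and 10.29 in the Cxcr5+Bcl6+ arrays, 11.44 and 11.10 in the Cxcr5+Bcl6- arrays and 12.02 and 11.60 in the Cxcr5-Bcl6- arrays and fell by 1.62 (SE 0.15, limma adjusted p = 6.52e-06), without overlap, and Snord16a (-1.61), Snord52 (-1.54) and Snord49a (-1.53) fell by like amounts. The Cxcr5+Bcl6- mean lay between the other groups for 42 of the 53, beside 9898 of all 19938 genes. RNA classes were grouped by annotation after the files had been read.

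Most of these RNAs are cut from introns of other genes, and the host genes changed less. For 31 small nucleolar RNAs with a measured host, 23 fell with a median of -1.003, and 11 of their 27 hosts fell with a median of -0.13, the other hosts not being called. Where the host encodes a ribosomal protein the gap was wider: 11 of 12 small nucleolar RNAs fell with a median of -1.23, beside 2 of 10 hosts with a median of -0.09. With other hosts 12 of 19 fell (median -0.71) beside a host median of -0.32. The sources used here do not say whether a probe set for such an RNA reads the mature form or the intron. Gas5, a host for several, is an example of probe sets that disagree, its 4 probe sets giving 0.03, -0.82, -1.71 and -1.96.

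**Figure D5:**
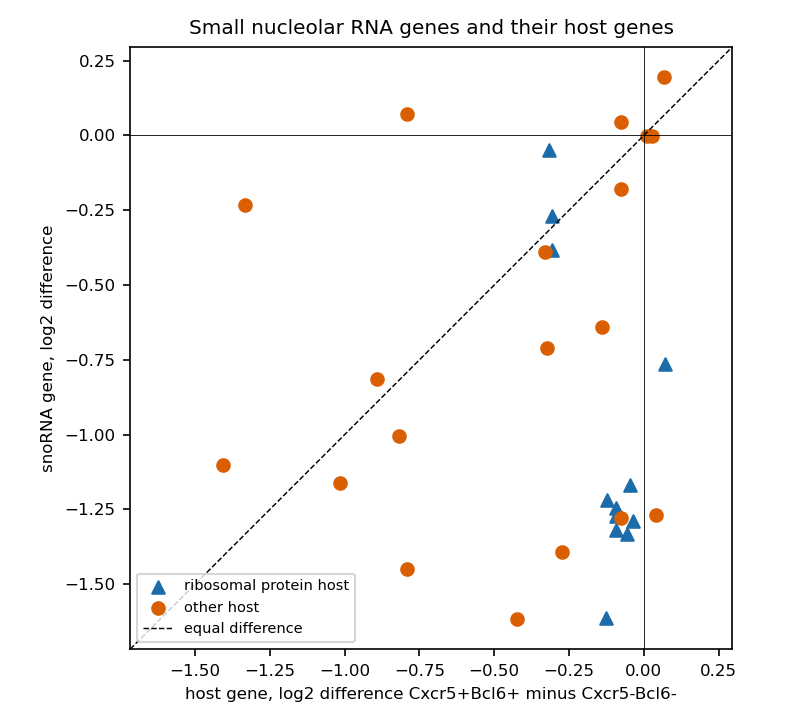
Log2 difference (Cxcr5+Bcl6+ minus Cxcr5-Bcl6-) of 31 small nucleolar RNA genes on the vertical axis against that of their host gene on the horizontal axis. Blue triangles have a ribosomal protein host and orange circles another host, the dashed line marks equal differences, and 23 of 31 points lie under it.

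Among 675 long noncoding RNA genes 94 rose and 41 fell (median 0.09), shares of 13.9% and 6.07% that are below those of all genes. Of the 675, only 308 exceeded background. Flicr, a transcript next to Foxp3 that is known from regulatory T cells, read 6.62 and 6.68 in the Cxcr5+Bcl6+ arrays against 8.87 and 8.67 in the Cxcr5-Bcl6- arrays and fell by 2.12 (SE 0.0987, limma adjusted p = 3.64e-08). Map2k3os (-1.79) and Dancr (-1.78) also fell, the former antisense to Map2k3, from which it may not be separated, and the latter a host of small nucleolar RNAs. Dubr (0.65), Malat1 (0.64) and Xist (0.63) rose. Long noncoding RNA rises numbered 60 without Cxcr5-Bcl6- replicate 1. Of 17 antigen receptor V segments 9 fell and the others were not called. Trgv1 (-1.19), a gamma chain segment under background, fell most, and Trav14-1 (-0.995) was the largest fall above background. V segment rises numbered 1 without Cxcr5+Bcl6+ replicate 1 or Cxcr5-Bcl6- replicate 2.

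Letters of other regulatory motifs were counted over the same 15563 promoters on both strands. The interferon-stimulated element (GAAA, any 2 letters, GAAA) was found in 3.32% of all promoters, in 8.27% of the 568 before genes that fell at least 2-fold and in 4.17% of the 192 before genes that rose as much. The gamma-activated site (TTCNNNGAA) was found in 7.85%, 11.4% and 3.65% of the same sets. A Bcl6 site (TTCCTNGAA), each match of which is also a gamma-activated site by letters, was found in 1.39%, 2.46% and 1.04%, which is 14 and 2 promoters in the changed sets. The AP-1 letters TGANTCA were found in 6.97%, 6.87% and 2.60%, the last being 5 promoters. Over all called genes the order was reversed, with 4.93% of 2802 promoters before falls and 6.57% of 2602 before rises. Runx letters (TGTGGT) stood at 14.2%, 15.5% and 18.8%, the cell cycle element TTTGAA at 15.2%, 14.1% and 15.1%, and CCAAT at 38.3%, 35.7% and 38.5%. These shares are descriptions without a test.

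Cxcr5+Bcl6- cells were closer to Cxcr5-Bcl6- than to Cxcr5+Bcl6+ cells by the number of probe sets called, 2610 (11.1%) against 6185 (26.4%), in comparisons that share arrays. Of the 6797 genes called between the outer groups, 5422 had a Cxcr5+Bcl6- mean between them, beside 9898 of all 19938 genes. Genes called for a gap between the outer groups leave more room for such a mean, so this count partly follows from the choice of genes. The groups of genes differed in where that mean lay. For nucleotide synthesis the list median was -0.55 for Cxcr5+Bcl6+ minus Cxcr5+Bcl6- and -0.20 for Cxcr5+Bcl6- minus Cxcr5-Bcl6-. Small nucleolar RNAs divided their difference more evenly, with medians of -0.45 and -0.50. For DNA repair genes the medians had opposite signs, -0.17 and 0.14.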

How the data were processed

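Total RNA was labelled with biotin and hybridised to Affymetrix whole-transcript arrays, 2 per sorted group. The authors deposited normalised probe-set values, which are on the log2 scale by their range. The submitters' processing notes name GCOS 1.1, RMA and Affymetrix Expression Console, with order, settings and genome build not given in the sources used here. Background correction, done before deposit, could compress differences of dim probe sets. Precision is limited by the number of arrays rather than by a read depth.

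Of 35556 probe sets, 21789 had 1 gene symbol in the platform annotation, 1621 several and 12146 none. Symbols were updated through Entrez identifiers to RefSeq (GRCm38.p6) for 21698, and genes were named only from probe sets with 1 symbol. Tests were run in R 4.3.3 with limma 3.58.1 on the 23410 probe sets that have a symbol (lmFit with group means over all 6 arrays, eBayes at default settings, two-sided). Benjamini-Hochberg adjustment ran over all 23410, with a threshold of 0.05 and no fold threshold. The fit had 3 residual and 8.25 prior degrees of freedom, and was tested on simulated data. Lists and ranks used the probe set with the highest mean over the 6 arrays, giving 19938 genes.

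The 37 gene lists (1606 genes, 1512 measured), 8 marker lists and the rule for named genes were chosen with earlier results of these data known, and 1 further list is not reported here. The rule allowed the 4 markers, ranks 1 to 30 in each direction, and up to 4 rises and 4 falls per list with the largest log2 difference among genes called, not overlapping between groups and above background in the higher group. The text draws its examples from these 341 genes. Another 56 were chosen after their values were seen, as were Gas5 and the genes that serve as checks. RNA classes came from RefSeq, and 272 of 297 microRNA genes matched a mature sequence. Lists, motif shares and host comparisons carry no test. Whether the replicate numbers pair the samples could not be decided. Deviations of same-numbered arrays of the compared groups correlated at r = -0.234. Against Cxcr5+Bcl6- arrays, r was -0.046 for Cxcr5+Bcl6+ and 0.258 for Cxcr5-Bcl6- arrays. In groups of this size, crossing the numbers only reverses the sign of r. Alternatives were other normalisations, filters, prior settings, sample sets, a replicate block and leaving out each array.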

Additional observations from a re-analysis of the deposited data

Results flagged for a closer look

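Among the 12146 probe sets without a gene symbol here, which no comparison above uses, 2426 were called when all probe sets were tested. Of these, 1039 were higher in Cxcr5+Bcl6+ cells and above the background level, and 880 were lower and above it. These calls lie outside the measurement reported, and the identity of the probe sets was not analysed here. In the same fit 6584 of the 23410 named probe sets were called, a higher share than among the unnamed. Whether the unnamed calls follow the upward shift of the receptor genes that T cells do not use was not tested.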

How the results depend on the processing

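Probe sets called numbered 8255 of 23410. Other normalisations, filters, prior settings and sample sets on named probe sets gave 6649 to 8548, the lower end with a filter at the median level, which tests fewer probe sets. Testing all 35556 probe sets gave 9010 calls, but only 6584 of them were named, and rises numbered 16 instead of 26 among histone enzymes and 16 instead of 38 among microRNA genes. Leaving out 1 array gave 6780 to 8370. The fit with the replicate number as a block gave 7942 calls (adjusted p under 0.05), and 3 of 397 genes checked lost their call under it. A crossed pairing of the replicate numbers, chosen after seeing the data, gave 9056 calls. Rises were 49.8% of calls, 51.6% after quantile normalisation, 48.3% after loess and 42.4% after centring each array on its median. No gene named by the rule or chosen later changed sign under any alternative run. Those that lost their call under some alternative numbered 20, each with a difference of at most 0.73 on the log2 scale, and between 0 and 14 did so under any 1 alternative. The receptor genes that T cells do not use rose by a median of 0.22, and by 0.167, 0.175 and 0.163 after quantile normalisation, centring and loess, so that small rises of dim genes are the least certain calls. Signal near background may understate differences whose lower group is dim, in falls such as that of Mir363 and in rises such as those of Hpgds and Ascl2.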
